A study of Danio rerio with 9 samples.

Results

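The genes described here encode the machinery that shortens, decaps and degrades messenger RNA, and the RNA-binding proteins that hold maternal transcripts back, stabilise them or mark them for decay. They were taken by gene symbol from the loci of the per-library gene tables, as every locus with a symbol of the CCR4-NOT (cnot), decapping (dcp), Xrn exonuclease, exosome (exosc), Pan2-Pan3, Parn, Argonaute, Tnrc6, YTH domain, Pumilio, Igf2bp, Zfp36 and cth1, BTG, CPEB, poly(A)-binding or CELF families. That rule found 80 of the 30702 loci listed, and 29 of these had a mean of at least 1 FPKM (fragments per kilobase of transcript, scaled to each library's mapped fragments) over the 9 libraries, among 5881 loci tested in all. The other 51 count as unmeasured.

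The libraries were made from total RNA of whole zebrafish embryos 3 hours after fertilization, with 3 tetraploid, 3 haploid and 3 diploid (control) libraries. The labels give the same cross, a TJH female with a Tu male, for every library, haploids included. They refer to a published procedure for making haploid and tetraploid embryos, and how many embryos were pooled in a library is not given in the sources used here. Nothing in the labels ties the replicates to separate clutches, so a p-value here reflects only how these libraries scatter, and that scatter may be technical.

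A zebrafish embryo begins development on RNA loaded into the egg, and clears much of it as its own genome becomes active near this stage. Clearance generally starts with removal of the poly(A) tail, after which transcripts are decapped and digested from the 5′ end or degraded from the 3′ end by the exosome. In zebrafish the microRNA miR-430 and the reader of methylated adenosine Ythdf2 are known to direct maternal transcripts to deadenylation, while Igf2bp3 is known as a stabiliser of maternal transcripts.

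Most of the unmeasured loci share a place in the deposited tables. On each of the 25 chromosomes the locus numbers rise with position, restart once and rise again. In the first of these numbering runs 5824 of 15144 loci (38.46%) were tested, and in the second run 44 of 15529 (0.283%). All 29 measured genes lie in the first run, where they make up 29 of 33 loci of the rule (87.9%). Of the 51 unmeasured loci 47 lie in the second run, and 16 are listed at 0 in every library. The unmeasured second-run loci include dcp2 (the catalytic decapping enzyme), ythdf2, cnot8, the cnot3 and cnot6 paralogs, cpeb1b and celf1. The 3 loci with a zfp36 symbol, zfp36l1a, zfp36l1b and zfp36l2, are also among them, while cth1 of that family was measured. The values of the unmeasured second-run loci were not read as absence of expression. The 4 unmeasured loci of the first run were cpeb3, CPEB2, celf5b and celf3b. On either side of the threshold stood dcp1a, at a mean of 3.08 FPKM, and cpeb3, at 0.457 FPKM. No CPEB or CELF gene was therefore measured, and the description rests on the remaining 11 families.

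Levels below are FPKM divided by a library factor (median of ratios over tested loci), called scaled FPKM. The factor was 0.793 in tetraploid replicate 3 and 0.9999 to 1.046 in the other 8 libraries. That library also stood apart over all tested loci, with correlations of 0.916 to 0.930 with the others, against 0.950 to 0.985 among the other 28 pairs. Depth is not stated. The deposited FPKM intervals, taken as 2 SD of counting error to each side, would correspond to a median of 216 to 428 fragments per locus of at least 1 FPKM. For the 29 genes the median implied number over the libraries ran between 128 for dcp1a and 18287 for cth1. Whole embryos were sampled, so fewer cells of a type and less RNA per cell cannot be told apart. Of maternal and oocyte-derived transcripts listed as a stage check, 7 of 10 loci were tested, and btg4, a gene described here, is 1 of them. The other 6 had a summed level of 2450.0 to 2924 scaled FPKM in tetraploids, 2775 to 2872 in haploids and 2639 to 2940.5 in diploids. Such a sum does not show how single genes differed. Tetraploid over haploid, 3 of the 7 had a positive log2 change and 4 a negative one, with npm2a at 0.49 and zp2.1 at -0.69. Of the late tissue markers 0 of 7 loci reached the filter. As 5 of those 7 belong to the second run, this count says little about stage. Early zygotic markers summed to 14.03 to 32.1 scaled FPKM in tetraploids, 1.49 to 32.5 in haploids and 15.7 to 124 in diploids, over the 4 of 10 loci tested. Of those 10 loci 5 belong to the second run. Of the 4 tested, 0 had a positive log2 change haploid over diploid, 0 tetraploid over diploid and 4 tetraploid over haploid. Among all loci 48.8%, 49.4% and 49% were positive in that order. The median log2 changes of the 4 were -1.79, -0.77 and 1.06, and 0 passed the adjusted test described below. Their diploid sum was 124 in replicate 1 and 15.7 and 34.3 in replicates 2 and 3. The part of these markers in the differences described below was not tested.

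The measured genes spanned a wide range of levels, shown in the plot of levels by library. The most abundant was cth1, a maternally supplied tandem zinc finger gene of the Zfp36 family, whose mammalian relatives bind AU-rich elements and recruit deadenylases. It lies on chromosome 7 from 17695243 to 17698342 in the files' coordinates (GRCz10) and had 999, 869 and 963 scaled FPKM in tetraploids, 730.1, 1223 and 914 in haploids and 813, 1044 and 839 in diploids, above 99.6% of tested loci. In each library cth1 exceeded every other gene of the set. Next came pabpc1a, a cytoplasmic poly(A)-binding protein gene (chromosome 16 from 55121258 to 55143222), with 417, 361 and 434 scaled FPKM in tetraploids, 361, 385 and 396 in haploids and 351, 389 and 379 in diploids. The deadenylase adaptor gene btg4 and the poly(A)-specific ribonuclease gene parn followed, at means of 244 and 219 scaled FPKM over 9 libraries, and their library values overlapped each other. These 4 genes were above 97.4% or more of tested loci. The next gene, exosc10, had a mean of 70.9 scaled FPKM, and from there to dcp1a (3.07) the levels descended without a gap wider than the libraries' range.

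**Figure D1:**
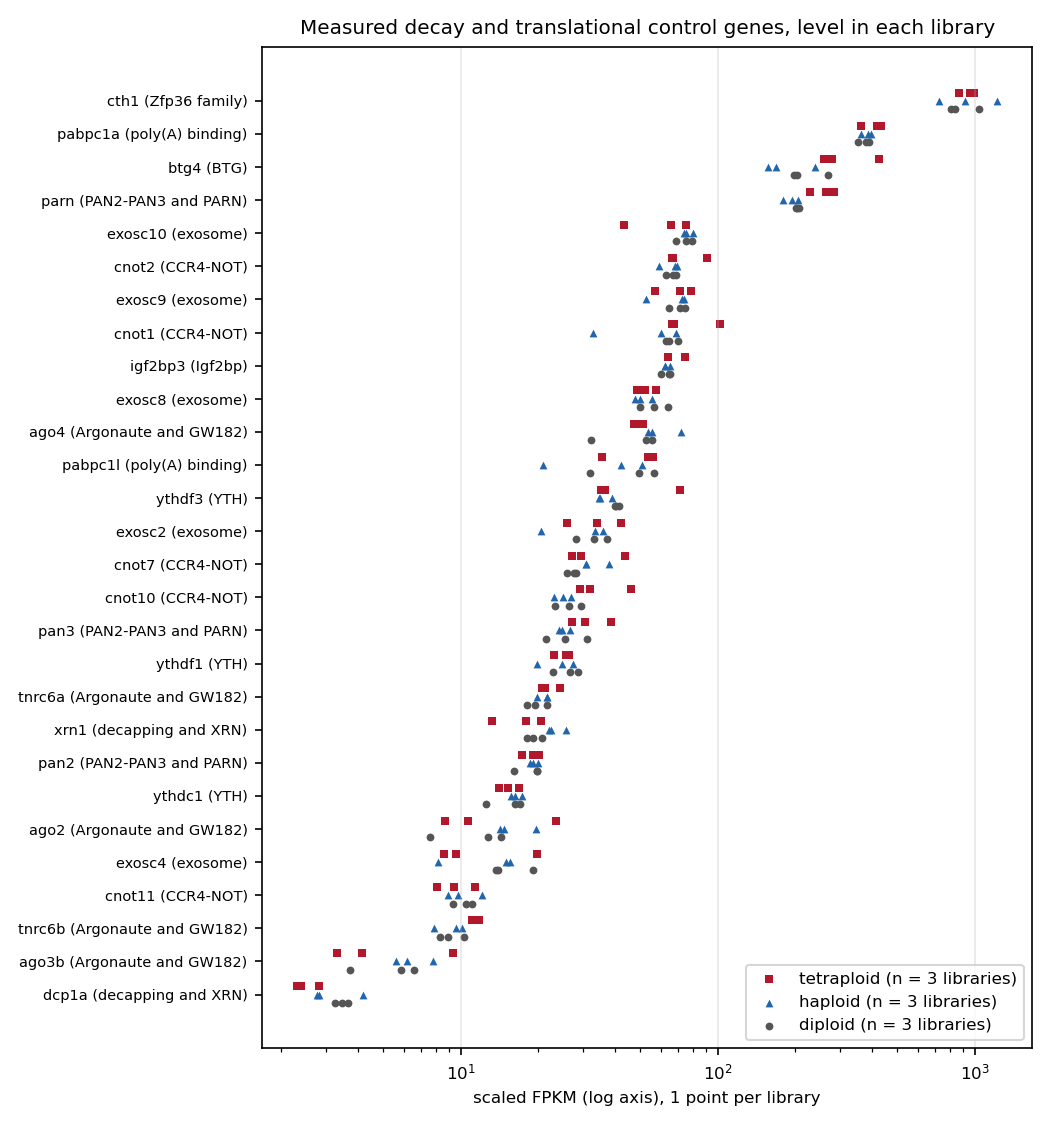
Scaled FPKM (log axis) of 28 of the 29 measured genes in each of 9 libraries, 1 point per library, with genes from top to bottom by falling mean level and their family in brackets. cth1, pabpc1a, btg4 and parn lie to the right of all other genes, and most genes show overlapping tetraploid, haploid and diploid points.

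Between ploidies, none of the 29 genes passed the test. Values were tested as log2(scaled FPKM + 1) with limma over all 5881 loci and Benjamini-Hochberg adjustment at 0.05, and log2 changes are on that scale, which understates the change of low genes. Tetraploid over haploid, 0 of 29 genes were called, where 0.017% of all loci were, and 4 of 29 had an unadjusted p under 0.05, against 7.72% of all loci. Tetraploid over diploid, 0 of 29 were called (0.017% of all loci), with 1 of 29 at an unadjusted p under 0.05 against 4.9% of all loci. Haploid over diploid, 0 of 29 were called (0% of all loci), with 0 of 29 at an unadjusted p under 0.05 against 1.38%. The smallest adjusted p among the genes was 0.551, 0.833 and 1.00 in these comparisons in turn by limma. Each ploidy enters 2 of the 3 comparisons, so these share samples.

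As a list the genes are described by the median and the sign of their log2 changes. The median log2 change was 0.06 tetraploid over haploid, 0.08 tetraploid over diploid and -0.01 haploid over diploid. Over all loci tested the medians were -0.006, -0.005 and -0.005 in that order. Tetraploid over diploid 20 of 29 genes had a positive log2 change with scaling (49.4% of all loci), against 12 of 29 with FPKM as deposited, where the median of all loci was itself -0.11. Tetraploid over haploid the counts were 17 of 29 with scaling (49% of all loci) and 10 of 29 as deposited, where all loci had a median of -0.09. Haploid over diploid 13 of 29 were positive (48.8% of all loci), and 12 as deposited. The log2 changes of single genes ran between -0.44 and 0.75 tetraploid over haploid, between -0.36 and 0.49 tetraploid over diploid and between -0.36 and 0.48 haploid over diploid. Past 1.5-fold in either direction lay 1 gene tetraploid over haploid, btg4 (7.74% of all loci), and 0 genes tetraploid over diploid (7.24%) and haploid over diploid (3.43%).

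**Figure D2:**
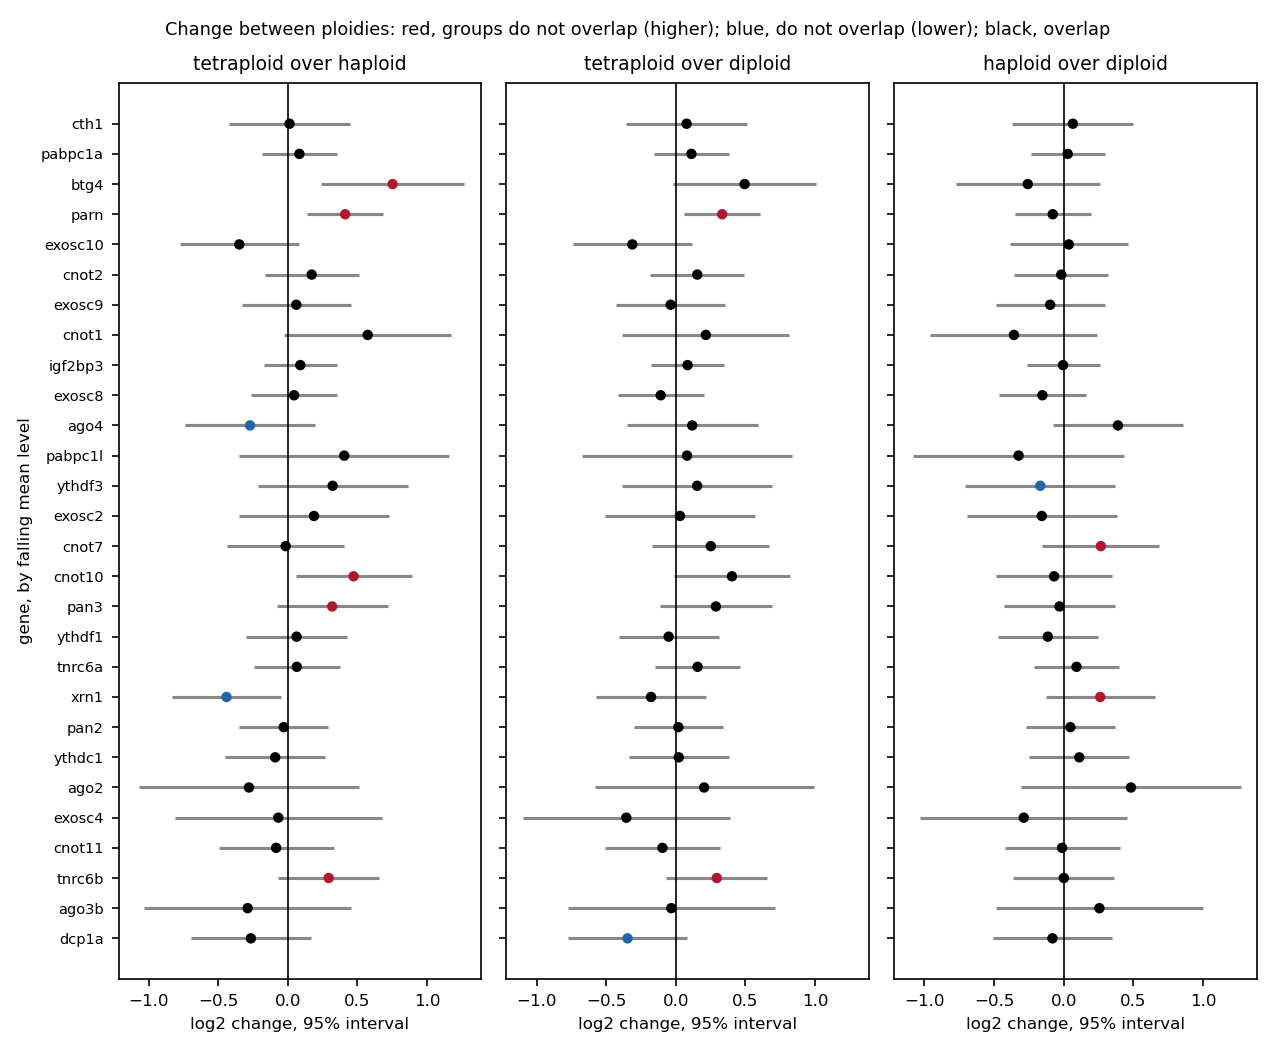
Log2 change on the log2(scaled FPKM + 1) scale with its 95% interval from limma for each of 28 genes, in 3 panels (tetraploid over haploid, tetraploid over diploid, haploid over diploid), genes by falling mean level. Red and blue points are genes whose 3 libraries of one ploidy all lie above or below the 3 of the other, and black points overlap. The intervals of parn, btg4, cnot10 and xrn1 leave out 0 tetraploid over haploid, and that of parn does so tetraploid over diploid.

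Counted by library, 5 genes had every tetraploid library above every haploid library (parn, tnrc6b, cnot10, pan3 and btg4) and 2 had every tetraploid library below (ago4 and xrn1). Among all tested loci 7.23% and 6.53% did so in those directions, against 17.2% and 6.9% of the 29 genes. With FPKM as deposited the first count was 2 genes, cnot10 and pan3, beside 4.51% of all loci, and the second was 3, with dcp1a added, beside 8.6%. Against diploids, tetraploid libraries did not overlap for parn and tnrc6b (above; 5.48% of all loci) and dcp1a (below; 6.02%), and as deposited for 0 genes above (2.99% of all loci) and for dcp1a below (8.43%). Haploid libraries lay apart from diploid libraries for 3 genes, cnot7 and xrn1 among them (above; 4.66% of all loci) and ythdf3 (below; 3.93%). Without tetraploid replicate 3 the counts above and below were 6 and 7 tetraploid over haploid, beside 13.6% and 14.1% of all loci, and 3 and 2 tetraploid over diploid, beside 11.1% and 12.2%. Without haploid replicate 2 they were 3 and 3 haploid over diploid, beside 8.3% and 7.55%.

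The deadenylation adaptor gene btg4 had the largest single difference. In mouse oocytes its product links the CCR4-NOT deadenylase to translation factors and is needed for maternal mRNA clearance. The btg4 locus (chromosome 5 from 57254393 to 57256476) had 279, 424 and 259.7 scaled FPKM in the 3 tetraploid libraries, 158, 239 and 169 in the 3 haploid libraries and 269.7, 199 and 203 in the 3 diploid libraries. The tetraploid libraries all stood above the haploid ones, and tetraploid replicate 1 and replicate 3 lay close to diploid replicate 1. Tetraploid over haploid the log2 change was 0.75 (SE 0.23, 95% interval 0.24 to 1.27, limma adjusted p = 0.551). It was 0.53 without tetraploid replicate 2, the highest btg4 library, and ran up to 0.94 with other single libraries left out. Tetraploid over diploid it was 0.49 (95% interval -0.02 to 1.01, limma adjusted p = 0.833), and 0.28 without tetraploid replicate 2. Haploid over diploid it was -0.26 (95% interval -0.77 to 0.26). With FPKM as deposited the log2 change was 0.65 tetraploid over haploid and 0.37 tetraploid over diploid. The tetraploid and haploid libraries then overlapped. The authors' deposited table of pooled values, which has its own scale, gave 742 FPKM for tetraploids, 437 for haploids and 516 for diploids. The second of the authors' deposited tables gave btg4 746 FPKM for tetraploids, 461 for haploids and 479 for diploids.

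The 3 measured deadenylases outside CCR4-NOT were parn, pan2 and pan3. parn encodes a ribonuclease specific for poly(A) tails, and its locus (chromosome 1 from 58608229 to 58618094) overlaps that of rdh8b. It had 264, 284 and 228 scaled FPKM in the 3 tetraploid libraries, 179.6, 196 and 206 in the 3 haploid libraries and 207, 202 and 204 in the 3 diploid libraries. Each tetraploid library was above the 6 others, and the diploid libraries lay within 5 scaled FPKM of each other. The log2 change was 0.41 tetraploid over haploid (SE 0.12, 95% interval 0.14 to 0.68, limma adjusted p = 0.551) and 0.33 tetraploid over diploid (SE 0.12, 95% interval 0.06 to 0.61, limma adjusted p = 0.833). With single libraries left out they ran between 0.34 and 0.50 and between 0.26 and 0.42, and with FPKM as deposited they were 0.31 and 0.21. In the deposited FPKM tetraploid replicate 3 had 181 FPKM, below every diploid and every haploid library. The separation of tetraploids from both other groups thus depended on the library factor. In the authors' deposited table, the first of the pair, parn had pooled values of 621 FPKM for tetraploids, 464 for haploids and 476 for diploids. In the second, also the authors' deposited table, they were 632 FPKM for tetraploids, 486 for haploids and 441 for diploids, so the order of haploids and diploids depends on the table. What sets the 2 tables apart is not given in the sources used here.

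pan2 and pan3 encode the catalytic subunit and the RNA-binding adaptor of the Pan2-Pan3 deadenylase. pan3 had 27.1, 30.4 and 38.5 scaled FPKM in tetraploids, 24.2, 26.6 and 24.8 in haploids and 25.6, 21.5 and 31.1 in diploids. Its tetraploid libraries were above the haploid ones and overlapped the diploid ones, with log2 changes of 0.32 tetraploid over haploid and 0.29 tetraploid over diploid (limma adjusted p = 0.685 and 0.833). Without tetraploid replicate 3, its highest library, they were 0.19 and 0.15. pan2 was among the steadiest genes, with 18.9 ± 1.45 scaled FPKM in tetraploids, 19.2 ± 0.685 in haploids and 18.6 ± 2.102 in diploids (SD, n = 3 each), and its log2 changes lay between -0.03 and 0.05.

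**Figure D3:**
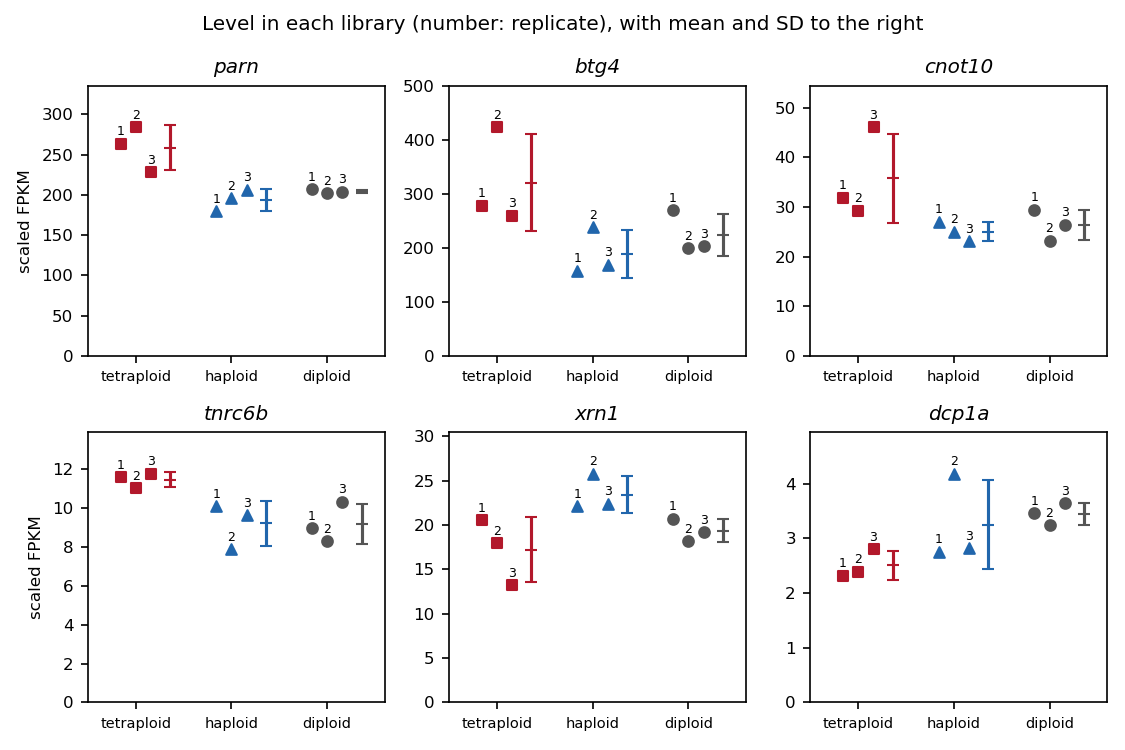
Scaled FPKM of parn, btg4, cnot10, tnrc6b, xrn1 and dcp1a in each library (number: replicate), with the mean and SD (n = 3 libraries) to the right of each ploidy. All 3 tetraploid points of parn and tnrc6b stand above the 6 others, and the dcp1a tetraploid points stand below the diploid points.

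The CCR4-NOT complex is the main cytoplasmic deadenylase, with Cnot1 as scaffold, and 5 of its 13 loci were measured. cnot10, whose product forms a module with Cnot11 on the scaffold, had 31.9, 29.3 and 46.1 scaled FPKM in tetraploids, 27.02, 25.01 and 23.05 in haploids and 29.4, 23.2 and 26.4 in diploids. Every tetraploid library was above every haploid one, with tetraploid replicate 3 far above the rest, and the log2 change tetraploid over haploid was 0.47 (SE 0.19, limma adjusted p = 0.616). Without that library it was 0.28. The scaffold gene cnot1, whose locus overlaps cyp2x8, had 66.3, 67.4 and 102 scaled FPKM in tetraploids, 68.7, 32.8 and 60.02 in haploids and 63.2, 70.5 and 64.9 in diploids. Its extremes were tetraploid replicate 3 and haploid replicate 2, while the other 7 libraries lay within 60.02 to 70.5. The cnot1 log2 change tetraploid over haploid was 0.57 with all libraries, 0.38 without tetraploid replicate 3, 0.26 without haploid replicate 2 and 0.06 without both (limma adjusted p = 0.651 with all).

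The catalytic subunit gene cnot7 had 29.4, 27.1 and 43.6 scaled FPKM in tetraploids, 30.8, 37.9 and 30.7 in haploids and 25.99, 28.1 and 27.7 in diploids. Its haploid libraries were all above the diploid ones, with a log2 change of 0.27 (SE 0.19, limma adjusted p = 1.00). Tetraploid over diploid the log2 change was 0.25, and 0.05 without tetraploid replicate 3. cnot2, a core subunit that works with Cnot3, had 74.8 ± 14.2 scaled FPKM in tetraploids, 65.7 ± 5.54 in haploids and 66.4 ± 2.86 in diploids (SD, n = 3 each). cnot11 had 9.65 ± 1.69 scaled FPKM in tetraploids, 10.3 ± 1.68 in haploids and 10.3 ± 0.878 in diploids. Of the 5 subunit genes 4 had a positive log2 change tetraploid over diploid, with a median of 0.22, and 0 of them passed. cnot11 was the exception at -0.10, and 0.02 without tetraploid replicate 3. Leaving out that library also gave 0.21 for cnot10, 0.02 for cnot1 and 0.006 for cnot2, so the family median of 0.22 depended largely on it. Among all loci 49.4% were positive tetraploid over diploid.

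Downstream of deadenylation, xrn1 and dcp1a were measured of 5 decapping and Xrn loci. xrn1 encodes the cytoplasmic exonuclease that digests decapped RNA, and had 20.5, 17.9 and 13.2 scaled FPKM in tetraploids, 22.1, 25.8 and 22.4 in haploids and 20.7, 18.2 and 19.2 in diploids. The haploid libraries were the 3 highest of the 9 and tetraploid replicate 3 the lowest. The log2 change was -0.44 tetraploid over haploid (SE 0.18, 95% interval -0.83 to -0.05, limma adjusted p = 0.618), and -0.27 without tetraploid replicate 3. Haploid over diploid it was 0.26 (95% interval -0.13 to 0.66, limma adjusted p = 1.00). dcp1a, the decapping activator and the lowest of the measured genes, had 2.32, 2.39 and 2.804 scaled FPKM in tetraploids, 2.76, 4.18 and 2.82 in haploids and 3.46, 3.25 and 3.64 in diploids. Its tetraploid libraries lay below all 3 diploid libraries under both scalings, with a log2 change of -0.35 (SE 0.19, 95% interval -0.78 to 0.08, limma adjusted p = 0.833). Haploid replicate 2 had the highest dcp1a level of all libraries.

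The RNA exosome degrades transcripts from the 3′ end, and 5 of its 10 loci were measured. exosc10, the nuclear exonuclease subunit, had 75.5, 65.6 and 43.3 scaled FPKM in tetraploids, 80.1, 75.3 and 74.3 in haploids and 79.8, 69.2 and 75.1 in diploids. The 8 other libraries lay within 65.6 to 80.1 and tetraploid replicate 3 far below them. The log2 change tetraploid over diploid was -0.31 with all libraries and -0.08 without that one, and tetraploid over haploid -0.35 and -0.11 (limma adjusted p = 0.833 and 0.685 with all). The ring subunit genes exosc9 and exosc8 had 69.1 ± 11.1 scaled FPKM in tetraploids, 66.4 ± 12.02 in haploids and 70.4 ± 5.32 in diploids and, for exosc8, 52.7 ± 4.47 scaled FPKM in tetraploids, 51.02 ± 4.07 in haploids and 57.02 ± 7.096 in diploids (SD, n = 3 each). exosc2, a cap subunit gene, had 41.9, 25.99 and 33.9 scaled FPKM in tetraploids, 35.8, 20.6 and 33.5 in haploids and 33.1, 28.3 and 37.02 in diploids, with haploid replicate 2 lowest. exosc4, a further ring subunit gene, varied most of the 5 within a ploidy, with 9.61, 19.8 and 8.63 scaled FPKM in tetraploids, 8.21, 15.04 and 15.6 in haploids and 13.8, 13.9 and 19.2 in diploids. For each exosome gene the libraries of every pair of ploidies overlapped. Of the 5 genes 4 had a negative log2 change tetraploid over diploid (median -0.11) and 4 haploid over diploid (median -0.15), and 0 passed. The exception tetraploid over diploid, exosc2, was at 0.03 with scaling and at -0.09 as deposited, where the median of all loci was -0.11. Among all loci 49.4% were positive tetraploid over diploid and 48.8% haploid over diploid. These family counts depended on single libraries. Leaving out haploid replicate 2 gave exosc9, exosc2 and exosc10 0.06, 0.08 and 0.05 haploid over diploid, and exosc8 and exosc4 -0.14 and -0.41. Leaving out tetraploid replicate 3 gave exosc9 and exosc2 0.10 and 0.02 tetraploid over diploid, and exosc8 and exosc4 -0.10 and -0.15.

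In the microRNA pathway, ago2, ago3b and ago4, which encode Argonautes, and tnrc6a and tnrc6b, which encode the GW182 scaffolds that bring in deadenylases, were measured of 9 loci. tnrc6b had 11.6, 11.04 and 11.8 scaled FPKM in tetraploids, 10.1, 7.91 and 9.64 in haploids and 8.97, 8.31 and 10.3 in diploids. The tetraploid libraries were the 3 highest and close together, with log2 changes of 0.29 tetraploid over haploid and 0.29 tetraploid over diploid (SE 0.16 in both, limma adjusted p = 0.685 and 0.833). With FPKM as deposited they were 0.20 and 0.18, and the libraries overlapped. The tnrc6b locus overlaps that of si:ch211-141o9.10. tnrc6a had 22.1 ± 1.89 scaled FPKM in tetraploids, 21.1 ± 1.05 in haploids and 19.8 ± 1.75 in diploids (SD, n = 3 each) and varied little.

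ago4 was the most abundant Argonaute gene measured, with 51.3, 50.3 and 47.2 scaled FPKM in tetraploids, 55.8, 72.2 and 53.8 in haploids and 52.8, 32.3 and 55.6 in diploids. Its haploid libraries lay above the tetraploid ones and diploid replicate 2 was lowest of all. The log2 change was 0.39 haploid over diploid (95% interval -0.08 to 0.86, limma adjusted p = 1.00), and 0.15 without diploid replicate 2. ago2 is the relative of the mammalian Argonaute known to cleave targets. It had 8.72, 10.7 and 23.5 scaled FPKM in tetraploids, 14.2, 19.7 and 14.8 in haploids and 12.8, 7.59 and 14.4 in diploids. ago3b had 3.299, 4.12 and 9.36 scaled FPKM in tetraploids, 6.16, 7.79 and 5.61 in haploids and 5.86, 3.701 and 6.57 in diploids. Both had their highest level in tetraploid replicate 3, with diploid replicate 2 lowest among diploids and haploid replicate 2 highest among haploids, a likeness picked after the values were seen. Without tetraploid replicate 3 the log2 change tetraploid over diploid was -0.20 for ago2, against 0.20 with it, and -0.41 for ago3b, against -0.03. Both genes, ago4 and igf2bp3 lie on chromosome 19, where the 242 other tested loci had a median deviation of 0.26 log2 units in tetraploid replicate 3, against -0.03 to -0.01 in the other 8 libraries. Over all tested loci the median deviation in that library was 0, and other single chromosomes were not summarised in this way. In tetraploid replicate 3 ago2, ago3b and igf2bp3 deviated by 0.78, 0.66 and 0.21, and ago4 by -0.12. The part of chromosome 19 in these values was not tested. The loci of ago2 and ago4 overlap other listed loci.

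**Figure D4:**
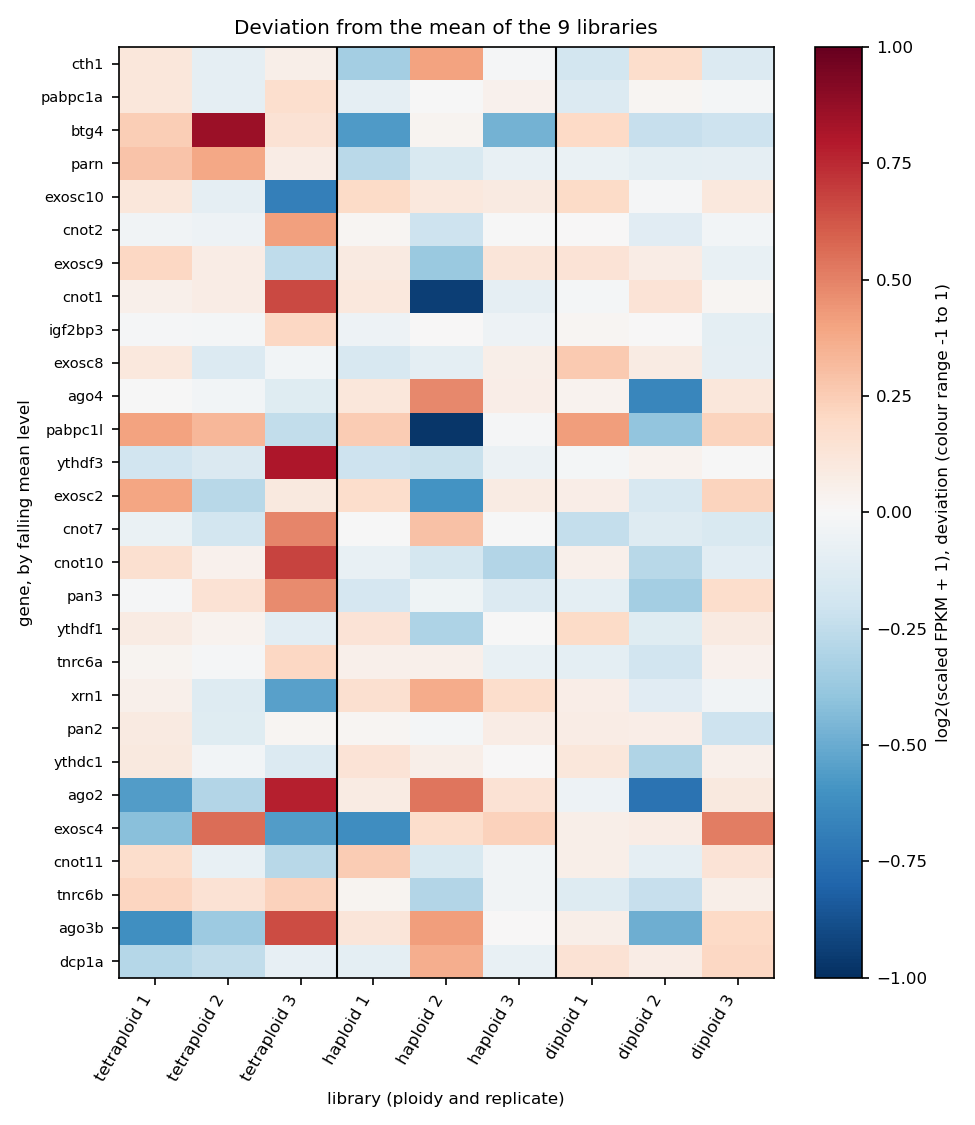
Deviation of each of 28 genes in each library from its mean over the 9 libraries, on the log2(scaled FPKM + 1) scale, with tetraploid, haploid and diploid libraries from left to right and genes by falling mean level. Tetraploid replicate 3 and haploid replicate 2 hold strong colours in both directions, and the darkest red is btg4 in tetraploid replicate 2.

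Among readers of methylated adenosine, ythdf1, ythdf3 and the nuclear reader ythdc1 were measured and ythdf2 was not. ythdf3 had 35.3, 36.6 and 71.6 scaled FPKM in tetraploids, 34.9, 34.5 and 38.8 in haploids and 39.9, 41.5 and 40.4 in diploids. The haploid libraries were below the diploid ones, with a log2 change of -0.17 (SE 0.24, limma adjusted p = 1.00). Tetraploid replicate 3 was the highest library, and tetraploid over diploid the log2 change was 0.15 with it and -0.17 without it. The ythdf3 locus overlaps that of pdha1b. ythdf1 had 25.03 ± 1.73 scaled FPKM in tetraploids, 24.1 ± 3.85 in haploids and 26.04 ± 2.98 in diploids, and ythdc1 had 15.4 ± 1.34 scaled FPKM in tetraploids, 16.5 ± 0.8302 in haploids and 15.3 ± 2.42 in diploids (SD, n = 3 each).

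Among the RNA-binding regulators, igf2bp3, the stabiliser, had 64.2, 63.9 and 74.9 scaled FPKM in tetraploids, 62.5, 65.1 and 62.6 in haploids and 65.5, 64.95 and 60.3 in diploids. It differed least within a ploidy of all 29 genes, and its log2 changes were 0.09 tetraploid over haploid (95% interval -0.17 to 0.35), 0.08 tetraploid over diploid (95% interval -0.18 to 0.35) and -0.005 haploid over diploid (95% interval -0.27 to 0.26). For cth1 the log2 changes were 0.01, 0.08 and 0.07 in the same comparisons, with haploid replicate 1 and replicate 2 as the lowest and highest of the 9 libraries. The 95% interval of cth1 haploid over diploid was -0.37 to 0.50.

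The poly(A)-binding protein genes contrasted in spread. pabpc1a had 404 ± 37.7 scaled FPKM in tetraploids, 380.5 ± 17.9 in haploids and 373 ± 19.97 in diploids (SD, n = 3 each), with log2 changes of 0.08, 0.11 and 0.03 tetraploid over haploid, tetraploid over diploid and haploid over diploid. Its paralog pabpc1b, a second-run locus, is listed at 0 in every library, and how reads shared by the paralogs were assigned is not given in the sources used here. pabpc1l, known in mouse as an oocyte and early embryo form, had 56.2, 53.4 and 35.4 scaled FPKM in tetraploids, 50.6, 20.97 and 41.9 in haploids and 56.6, 31.9 and 49.4 in diploids. Each ploidy had 1 library far below its other members. Haploid over diploid the log2 change was -0.32, and 0.04 without haploid replicate 2 (limma adjusted p = 1.00 with all libraries).

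Values also varied within each ploidy. The median SD within a ploidy was 0.218 log2 units over the 29 genes and 0.278 over all tested loci, and 19 of 29 genes lay below the latter value. The genes are no random draw of loci and differ from them in level, so these medians are a description. The steadiest were igf2bp3 (0.0853), pabpc1a (0.0995), tnrc6a (0.105), parn (0.109) and pan2 (0.115). The most variable were ago2 (0.503), pabpc1l (0.493), exosc4 (0.4697), ago3b (0.458) and cnot1 (0.381). Extreme values were unevenly spread over the libraries. Tetraploid replicate 3 held the highest value of 13 genes and the lowest of 3, where 29% and 28.9% of all tested loci had their highest and lowest value there. Haploid replicate 2 held the highest value of 4 genes and the lowest of 8, beside 15.6% and 15.8% of all loci. Without these 2 libraries 0 of 29 genes passed in any comparison, while 2 of all loci passed tetraploid over haploid and 0 tetraploid over diploid. Of the 29, 14 were positive tetraploid over haploid, 20 tetraploid over diploid and 18 haploid over diploid. Their median log2 changes were then -0.003, 0.02 and 0.05 in that order, beside 0.007, 0.005 and 0.0001 over all loci.

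**Figure D5:**
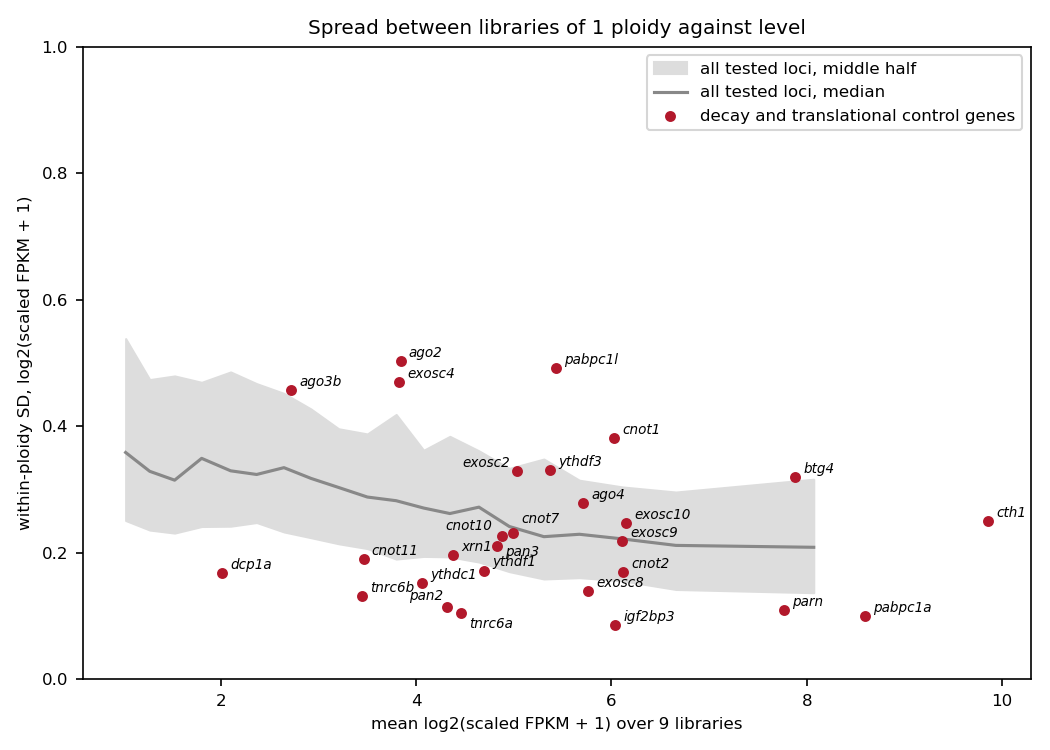
Within-ploidy SD on the log2(scaled FPKM + 1) scale against the mean level on that scale for 28 of the 29 genes (points), with the median (line) and lower to upper quartile (band) of all tested loci in 20 bins of level. Among the genes below the band are igf2bp3, tnrc6a, tnrc6b, parn and pan2. Among those above it are ago2, exosc4, pabpc1l and cnot1 and, by little, ago3b and btg4.

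Other genes of decay and translational control were counted from a list of 106 symbols outside the rule, of which 89 loci were listed and 34 tested, while 53 belong to the second run. None passed in any comparison by limma. Of the 34, 18 had a positive log2 change tetraploid over haploid, 22 tetraploid over diploid and 20 haploid over diploid, with medians of 0.00, 0.09 and 0.03. Among all loci 49%, 49.4% and 48.8% were positive in that order. Single genes stood apart in tetraploid replicate 3 in either direction, 2 of them picked here after their values were seen. In that library g3bp2 had 61.8 scaled FPKM, against 32.5 and 34.4 in the other tetraploid libraries. There lsm7 had 24.4, against 68.9 and 67.5. The counts of the 34 were not repeated without that library or with FPKM as deposited. The most abundant were lsm14b, a maternal mRNP component gene, with 372 ± 106 scaled FPKM in tetraploids, 392 ± 31.7 in haploids and 392 ± 70.9 in diploids, and syncrip, an RNA-binding protein gene, with 354 ± 16.9 scaled FPKM in tetraploids, 326 ± 5.34 in haploids and 316 ± 32.8 in diploids (SD, n = 3 each). dis3l2, an exonuclease that degrades uridylated RNA from the 3′ end, was picked after its values were seen. It had 14.7, 18.5 and 19.6 scaled FPKM in tetraploids, 25.7, 26.04 and 24.6 in haploids and 22.7, 19.6 and 20.4 in diploids, with a log2 change of -0.52 tetraploid over haploid (SE 0.15, limma adjusted p = 0.551). lsm1, a subunit of the ring that binds deadenylated RNA, was also picked afterwards. It had 118 ± 12.7 scaled FPKM in tetraploids, 101 ± 15.1 in haploids and 89.7 ± 20.9 in diploids, with a log2 change of 0.42 tetraploid over diploid (limma adjusted p = 0.833). The other tested subunit genes of that ring, lsm6 and lsm7, had negative log2 changes in that comparison. They were -0.21 and -0.49 (limma adjusted p = 0.866 and 0.833). Of 10 genes known in zebrafish as miR-430 targets, 4 were tested (ddx18, tdrd7a, gnpda1 and ndr1) and 0 passed, with log2 changes tetraploid over diploid of 0.37, -0.07, 0.40 and -0.48 in that order.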

How the data were processed

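RNA-seq values of 9 zebrafish libraries were analysed. Per the submitters' processing notes, FastQC, Trim Galore, HISAT2, Cufflinks and Cuffdiff were used with the GRCz10 build; their versions, the annotation and the strand setting are not stated there or in the labels. The deposited FPKM values come from the authors' per-library gene tables, and 2 further deposited tables give 1 pooled FPKM per ploidy. FPKM are not counts, so no count model was used.

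Loci with a mean of at least 1 FPKM over 9 libraries were kept (5881), scaled by median of ratios, transformed as log2(scaled FPKM + 1) and fitted in 1 model of 3 ploidies with limma 3.58.1 (R 4.3.3, mean-variance trend, 6 residual degrees of freedom), with Benjamini-Hochberg adjustment over all 5881 loci at 0.05. The script was tested on simulated data. How often changes of the sizes seen here would pass is not reported here, so 0 of 29 called does not show equal levels. Within-ploidy SD is pooled over the 3 ploidies. Named genes were those with the 6 smallest p-values on each side of each comparison, the 3 most abundant of each family, and the genes at the expression threshold. The remaining measured genes were added as a description. Of the 29, 1 gene enters the counts and medians and is otherwise not reported here. The members and lists were chosen with earlier results of these data known. Alternatives covered scaling, pseudocount, filter, fit, library weights, a replicate block and leaving out libraries. Of the 29 symbols 28 matched the RefSeq gene table, and 8 of the loci overlap another listed locus, whose reads cannot be told apart without a stated strand setting. No 2 libraries held identical values. 5 loci have a failed status in some library.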

Additional observations from a re-analysis of the deposited data

How the results depend on the processing

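Under all 20 alternatives run, 0 of the 29 genes were called in each comparison. The 36 gene changes followed through the alternatives were those with the 6 smallest p-values on each side of each comparison in these same data. That choice favours changes of steady sign. They gave 718 values, all uncalled, and 712 kept their direction. The other 6 changed sign while remaining uncalled. pabpc1l haploid over diploid was 0.0422 without haploid replicate 2 and 0.0413 without tetraploid replicate 3 and haploid replicate 2 together, a setting chosen after seeing the data (range over single libraries left out, -0.5747 to 0.0422). ythdf1 haploid over diploid was 0.0121 and 0.0112 (range -0.2119 to 0.0121), and cnot11 tetraploid over diploid was 0.0156 without tetraploid replicate 3 and 0.0185 without both (range -0.2116 to 0.0156). The causes were not tested. Over all 87 pairs of a gene and a comparison, 42 kept 1 sign under every alternative, so the sign of small changes should not be read. dcp1a did not enter the alternative with a mean of at least 5 FPKM.

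The median log2 change of the genes tetraploid over diploid (0.0849) was -0.0417 as deposited, 0.0066 with no filter, where 64 loci of the rule entered, and 0.0083 with library weights. Tetraploid over haploid (0.0608) it was -0.0386 as deposited. Leaving out the scaling moved all loci, to medians of -0.1123 and -0.0915, and the genes' median minus that of all loci was 0.0706 as deposited and 0.0895 scaled tetraploid over diploid, and 0.0529 and 0.0667 tetraploid over haploid. With single libraries left out this difference ran between 0.0155 and 0.1425 tetraploid over diploid, and between 0.0141 and 0.1133 tetraploid over haploid. The lower ends were without tetraploid replicate 3 and the upper ends without tetraploid replicate 2. With library weights the difference was 0.0072 tetraploid over diploid and 0.0088 tetraploid over haploid. Over all loci, 1 was called tetraploid over diploid, 1 tetraploid over haploid and 0 haploid over diploid. Tetraploid over diploid the count was 0 as deposited, with a pseudocount of 5, with only the 2 ploidies fitted, with the replicate block and without the 2 libraries, and 3 with no filter. Tetraploid over haploid it was 0 with only the 2 ploidies fitted and with the replicate block, and 2 without the 2 libraries. Leaving out single libraries gave 0 to 1 in each comparison, with 1 haploid over diploid only without diploid replicate 1. Of the 20 alternatives, 13 moved the count tetraploid over diploid away from 1, and 8 did so tetraploid over haploid. The replicate block called 0 loci haploid over diploid as well, and changed no call among the 29 genes. Library numbers in the titles form 3 sets, but deviations of libraries of the same set correlated at -0.1102 to 0.2338, other pairs at -0.1326 to 0.2278, and 3 of 9 libraries correlated best with their own set, so the numbers were not taken to pair samples. With 3 libraries per ploidy and unstated depth, the intervals of single genes are wide.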
